A study of Mus musculus with 34 samples.

Results

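The last day of cardiac differentiation was examined in mouse embryonic stem cells (ESCs) that lack the long non-coding RNA Handsdown (Hdn), with cells taken on day 6 compared with cells taken on day 5. The members are 6 of the 34 samples of the series: 3 libraries of Hdn null cells on day 6 and 3 of Hdn null cells on day 5. All 6 come from the F1(G4) ESC line (strain 129S2/C57Bl6J, Hdn mutant) and had 20 ng/mL BMP4 in serum-free medium, after aggregation in hanging drops and plating on fibronectin. Wild-type F1(G4) cells under the same treatment, with 3 libraries on day 6 and 3 on day 5, were used to see whether a change differed between genotypes. Null cells on day 4, in 3 libraries, served for levels that set neither the change from day 5 to day 6 nor the likeness to adult beta globin. They entered the choice of genes only through the filter on low levels and the spread shared by all libraries. The labels do not state the sequence change in the mutant, the number of mutant clones or whether replicates are separate cultures. The limma p-values rest on the spread between libraries of a group, estimated over all 30 RNA libraries of the series. That spread may be technical, and it is not the spread of the 6 null libraries alone. The labels also conflict: hearts of embryos are the subject of the growth protocol and Brachyury mutants of the design text, while titles and treatment protocol describe Hdn null ESCs in differentiation.

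BMP4 directs ESCs through a primitive streak stage into mesoderm, from which heart muscle, vessel lining, fibroblasts and primitive blood arise. Early heart muscle switches on transcription factors such as Nkx2-5 and the embryonic sarcomere, the contractile unit of muscle. Genes of adult muscle energy supply and of adult haemoglobin belong to later development. Hdn is transcribed next to Hand2, which encodes a transcription factor needed in heart and limb development.

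The 6 null libraries had between 56.3 and 59.9 M reads, inferred from the deposited RPKM (reads per kilobase of gene, relative to the reads of the library), and 11033 to 11819 genes at 1 RPKM or more. Levels below are RPKM after scaling by a size factor per library, called scaled RPKM. A gene rose or fell where the limma adjusted p (Benjamini-Hochberg over 14196 genes) was under 0.05 and the log2 change was at least 1 in size, and log2 changes are day 6 minus day 5 on log2(scaled RPKM + 0.5), which understates the change of genes at low levels. Hdn itself, listed as 5033428I22Rik, had 0, 8 and 3 reads in null day 6 replicates 1, 2 and 3, against 0, 0 and 1 in null day 5 replicates 1, 2 and 3. The levels of Hdn did not differ detectably at this depth (exact two-sided permutation p = 0.4, where 3 against 3 libraries allow 0.1 at the lowest). A count of 0 allows up to 3 reads per library. Wild-type cells had 60, 37 and 240 reads of Hdn on day 6, against 19, 24 and 29 on day 5.

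Adult beta globin and the genes that track it were set apart first. Hbb-bs, the adult beta globin gene, stood at 61, 181 and 155 scaled RPKM in null day 6 replicates 1, 2 and 3, against 0, 0.16 and 27 in null day 5 replicates 1, 2 and 3. On null day 4 it was at 0, 0.0244 and 19.8 scaled RPKM. Adult globin was thus present in all 3 day 6 libraries and in replicate 3 of days 4 and 5, and near 0 in replicates 1 and 2 of days 4 and 5. In wild-type cells Hbb-bs was at 0.0796, 0.046 and 1.53 scaled RPKM on day 6, against 0, 0.0223 and 0 on day 5. The alpha globin genes Hba-a1 and Hba-a2, counted here with the adult globins, were not confined to null cells. They stood at 23.7 and 22.3 scaled RPKM in wild-type day 6 replicate 3, against 27.9 and 31.6 in null day 5 replicate 3. In wild-type day 6 replicates 1 and 2 they lay between 0.13 and 0.358. Defining markers of the red cell lineage were uneven: 4 of 11 genes tested in the list of adult globins and late red cells rose, and all 4 were globins. Alas2, an erythroid haem enzyme gene, was too low to be tested. It had 53, 123 and 83 reads on null day 6, against 7, 7 and 20 on day 5 and 6, 10 and 20 on day 4. Wild-type cells had 13, 12 and 57 reads of Alas2 on day 6, against 12, 9 and 13 on day 5. With only the 6 libraries in the fit 0 of the 11 rose, and the adjusted p was 0.14 for Hbb-bs. The summed level of that list ran between 294 and 764 scaled RPKM on day 6, against 42 to 158 on day 5, and embryonic globins summed with early red cell genes ran between 14.1 and 61.2 scaled RPKM on day 6, against 3.35 to 7.4 on day 5.

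A gene was said to track Hbb-bs where Pearson's r between both levels was at least 0.9 over the 6 null libraries. This held for 488 genes, 3.44% of those tested. The measure is a description: it follows the difference between days as well as the difference among libraries of a day. Without null day 5 replicate 3 the genes that track numbered 856, and without null day 6 replicate 1 or 3 they numbered 1074 and 1041. Of the genes that rose, Dpep1 (r = 0.89), Scube1 (0.893) and Ccdc141 (0.895) lay just outside the threshold, and Eln (0.906) and Serpinb9e (0.909) inside it.

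From day 5 to day 6 of the null cells 174 genes rose, 1.23% of the 14196 tested, and 33 fell, 0.232%. The median log2 change of all genes was 0.02. Of the genes that rose, 82 track Hbb-bs and 92 do not, and no gene that fell tracks it. All 3 day 6 levels lay above all 3 day 5 levels for 12.5% of all genes and below them for 7.75%. The filter on low levels was passed by 192 genes only through the day 6 libraries, and 54 of them are among the genes that rose, 35 of those tracking Hbb-bs. Without null day 5 replicate 3, the day 5 library with adult globin, 175 genes rose and 76 fell, and with only the 6 libraries in the fit 79 rose and 16 fell. The tracking rises came to 54 without null day 5 replicate 1, 132 without null day 6 replicate 1 and 46 without null day 6 replicate 2, and the other rises to 28 without null day 6 replicate 1. The falls came to 18 without null day 5 replicate 1, 18 without null day 5 replicate 2 and 18 without null day 6 replicate 2.

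**Figure D1:**
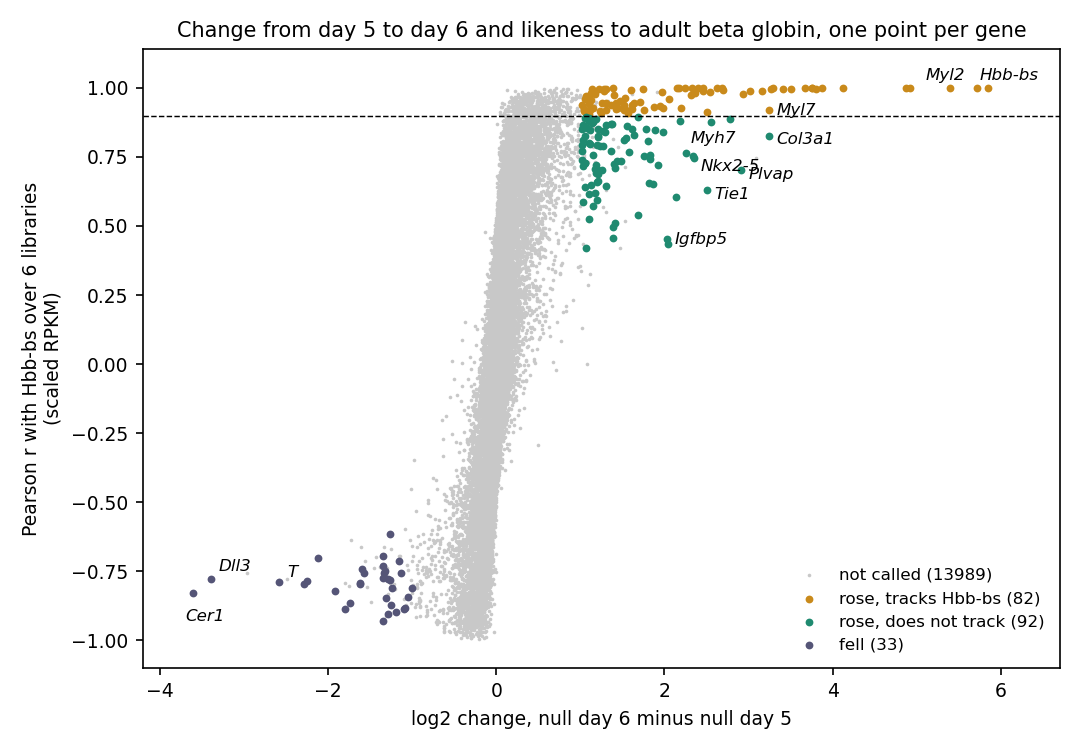
Each point is 1 of 14196 genes, with its log2 change from null day 5 to null day 6 on the x axis and its Pearson r with Hbb-bs over the 6 libraries on the y axis. The dashed line marks r of 0.9; 82 genes that rose lie on or above it (ochre), 92 below it (green), and the 33 that fell lie at negative r.

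The order of the libraries differed between both groups of genes that rose. Null day 6 replicate 1, the day 6 library with the lowest Hbb-bs, was the lowest of its day for 78 of the 82 tracking genes, 9 of the 92 others and 34.1% of all genes. Null day 5 replicate 3 was the highest of its day for 57 of the 82 and 28 of the 92, against 45.5% of all genes. These shares follow in part from the choice by r. Null day 4 took no part in r or in the change, and entered the calls only through the filter and the shared spread. There replicate 3 was the highest of its day for 56 of the 82 (68.3%) and 39 of the 92 (42.4%), against 43.4% of all genes. The 33 genes that fell were highest in null day 5 replicate 3 in 1 case and highest in null day 4 replicate 3 in 9.

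Promoters of 4 genes are shown because they stand for 4 courses over these libraries: the globin that sets genes apart, a sarcomere gene that was, like it, highest of the day 5 libraries in replicate 3, a sarcomere gene that was lowest in the day 5 library with globin, and a gene that fell. The windows, from RefSeq (GRCm38.p6), run from 250 bases before to 50 bases after the annotated start, 5′ to 3′ on the strand of the gene. They are Hbb-bs at chr7:103827879-103828178, Actc1 at chr2:114052826-114053125, Myl7 at chr11:5898733-5899032 and Ifitm3 at chr7:141010695-141010994, all on the minus strand. Capitals mark matches on either strand to 7 motifs. The letters searched were AGATAA for GATA factors, TATAAA for the TATA box and, for the interferon-stimulated response element, TTTC repeated after 2 free bases. They were TNAAGTG for NKX2-5 and AGGTGT for T-box factors, and the MEF2 and CArG box motifs are given by name.
Hbb-bs: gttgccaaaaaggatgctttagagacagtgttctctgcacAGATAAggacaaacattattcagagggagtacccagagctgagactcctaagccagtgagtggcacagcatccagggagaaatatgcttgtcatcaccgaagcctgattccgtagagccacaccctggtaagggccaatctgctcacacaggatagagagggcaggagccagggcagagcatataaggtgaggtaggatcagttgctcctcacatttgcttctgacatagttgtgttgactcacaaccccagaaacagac
Actc1: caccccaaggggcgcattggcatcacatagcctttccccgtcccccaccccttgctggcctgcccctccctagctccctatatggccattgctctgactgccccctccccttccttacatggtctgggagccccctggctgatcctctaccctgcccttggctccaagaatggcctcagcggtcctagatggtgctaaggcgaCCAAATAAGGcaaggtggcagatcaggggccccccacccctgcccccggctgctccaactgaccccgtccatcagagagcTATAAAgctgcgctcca
Myl7: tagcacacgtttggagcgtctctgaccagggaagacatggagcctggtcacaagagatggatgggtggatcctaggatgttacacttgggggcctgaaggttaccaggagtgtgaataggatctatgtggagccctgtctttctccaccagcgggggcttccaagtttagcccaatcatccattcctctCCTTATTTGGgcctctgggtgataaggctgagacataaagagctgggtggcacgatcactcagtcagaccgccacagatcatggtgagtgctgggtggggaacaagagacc
Ifitm3: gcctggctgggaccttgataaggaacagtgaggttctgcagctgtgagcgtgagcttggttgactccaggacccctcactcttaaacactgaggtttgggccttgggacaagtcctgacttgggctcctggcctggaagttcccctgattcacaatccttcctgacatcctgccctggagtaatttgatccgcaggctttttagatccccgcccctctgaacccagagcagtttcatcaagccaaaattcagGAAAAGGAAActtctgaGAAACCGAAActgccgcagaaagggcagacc

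In the Hbb-bs window the capitals are 1 GATA match, a motif in 11.2% of all 32851 promoter windows of this length. Those of Actc1 are a CArG box, held by 1.63% of windows, and a TATA box, held by 13.6%. Myl7 has 1 CArG box, and Ifitm3 has 2 matches to the interferon-stimulated response element, which 3.44% of windows hold. No match overlaps another. NKX2-5 and T-box matches, in 11.5% and 13.7% of all windows, and MEF2 matches, in 3.19%, are not among the letters of these 4 windows.

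Genes of the mature ventricle and of muscle energy supply rose together with Hbb-bs. Myl2, the ventricular regulatory myosin light chain, was at 45.2, 129 and 115 scaled RPKM in null day 6 replicates 1, 2 and 3, against 0.154, 0.153 and 20.7 in null day 5 replicates 1, 2 and 3. The groups do not overlap, and the 4 high libraries are those with adult globin. The log2 change was 5.40 (SE 0.98, limma adjusted p = 0.0012). Its ratio to Hbb-bs was 0.74, 0.711 and 0.737 in the day 6 libraries, 0.765 in null day 5 replicate 3 and 0.864 in null day 4 replicate 3. In wild-type cells Myl2 stayed between 0.0157 and 0.0721 scaled RPKM on day 6, against 0.017 to 0.0439 on day 5.

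Other genes of that list had the same course. Cox8b, which encodes the muscle form of a respiratory chain subunit, was at 5.83, 18.8 and 17.2 scaled RPKM on day 6, against 0, 0 and 3.02 on day 5. It was listed at 0 in all 6 wild-type libraries of both days. Tnni3, the adult cardiac troponin I, was at 12, 33.2 and 29.5 scaled RPKM on day 6, against 0.258, 0.306 and 6.03 on day 5 (log2 change 3.88, SE 0.56). The oxygen-binding protein gene Mb, encoding myoglobin, was at 26.1, 73.1 and 65 scaled RPKM on day 6, against 1.77, 1.5 and 13 on day 5. In the whole list, 12 of 22 genes tested rose and 0 fell, with a median log2 change of 1.29, and all 12 track Hbb-bs. With only the 6 libraries in the fit 3 rose, and Myl2 (limma adjusted p = 0.13), Tnni3 (0.11), Cox8b (0.11) and Mb (0.094) lost their calls. With the filter of 5 scaled RPKM 5 of 12 tested rose. In bulk RNA, fewer cells of a type and less RNA per cell cannot be told apart.

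The ratio to Hbb-bs was held within 1.5-fold over the 3 day 6 libraries and null day 5 replicate 3 by 26 of the 82 tracking genes that rose, Hbb-bs included, and by 31 of all genes tested (0.218%). The choice by r used the same libraries, so this is a description. With null day 4 replicate 3, which the choice by r did not use, 13 of the 26 stayed within 1.5-fold. There the ratio of Actc1 was 1.02, against 1.87 in null day 5 replicate 3, and that of Mybpc3 was 0.0424, against 0.0736. Besides the 4 adult globins, the 26 include Myl2, Myl3, Tnni3, Tnnt2, Actc1, Actn2, Myh6, Mybpc3, Ckm, Cox6a2, Cox8b, Mb, Myoz2, Casq2, Pln, Nppa and Hspb7. Hba-a1 and Hba-a2, and Hbb-bs and Hbb-bt, are near-identical copies whose reads the counting may have split, so their separate levels are uncertain. The rises of Hba-a1 (4.87) and Hba-a2 (4.92) lost their call without null day 5 replicate 1 (4.12 and 4.19) or 2 (4.22 and 4.23) and without null day 6 replicate 2 (4.57 and 4.62) or 3 (4.73 and 4.77).

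A subtraction took from each gene in each null library the amount that its own excess in replicate 3 of days 4 and 5 predicts from Hbb-bs. By construction it can only lower levels, and lowers day 6 most, so only rises that remain are read from it, and only where it took something. The excess is averaged over days 4 and 5. A gene in step with Hbb-bs on days 5 and 6 can keep a rise if its day 4 ratio was lower. Hbb-bt still rose (3.82). Its ratio to Hbb-bs was 0.846 to 0.855 on day 6, 0.847 in null day 5 replicate 3 and 0.64 in null day 4 replicate 3. A rise that remains is thus not shown to exceed what follows Hbb-bs. After the subtraction 147 genes rose, 1.04% of those tested. It lowered 63 of the 82 tracking genes that rose, of which 32 still rose, and 38 of the 92 others, of which 19 still rose. From 19 and 54 genes it took nothing, which leaves their calls as no test. From the list of the mature ventricle 4 of 22 still rose, which were Ckm (1.41), Pygm (1.09), Asb2 (2.62) and the fatty acid transporter Cd36. The ratio of Ckm to Hbb-bs was 0.0653 to 0.0674 on day 6, 0.0747 in null day 5 replicate 3 and 0.0405 in null day 4 replicate 3. For Asb2 the ratio was 0.0403 to 0.0687, 0.0284 and 0.0113 in the same libraries.

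**Figure D2:**
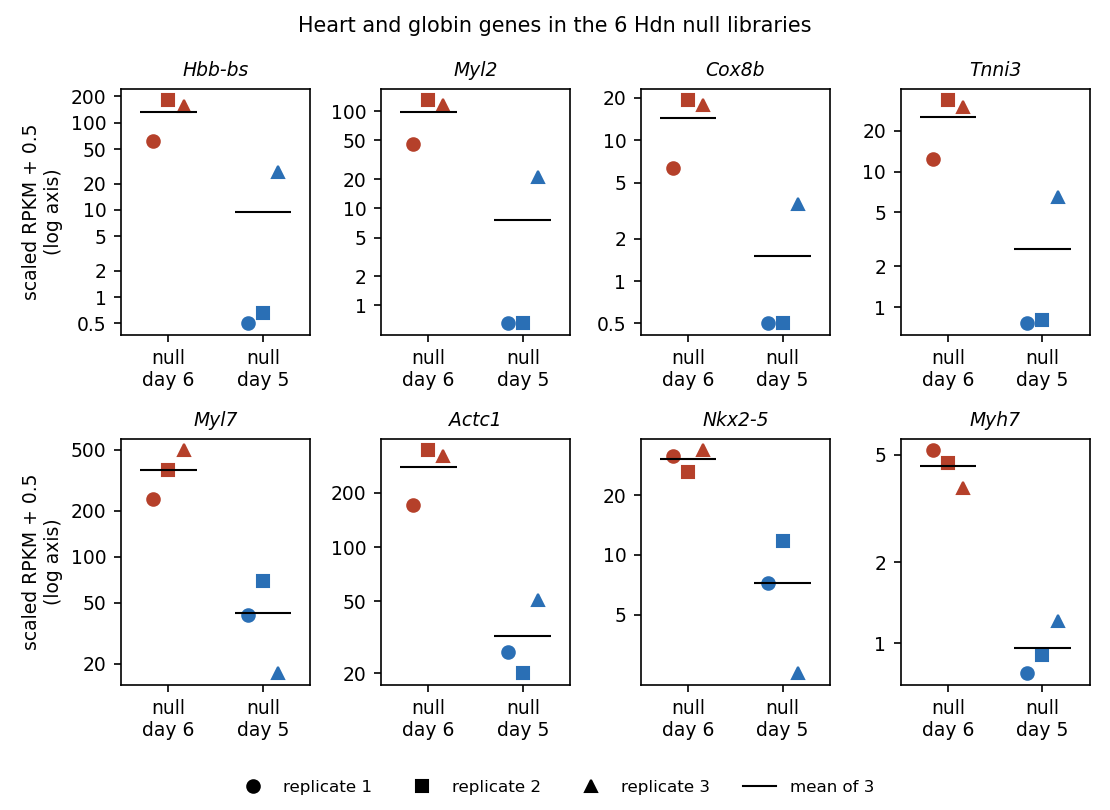
Scaled RPKM plus 0.5 on a log axis in each null library, day 6 left and day 5 right, with replicates by symbol and the mean of 3 as a line. In the upper row null day 5 replicate 3 lies between the day 6 libraries and the other day 5 libraries; in the lower row Myl7 and Nkx2-5 are lowest in that library.

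Embryonic sarcomere genes rose in 15 of 24 cases tested, with 0 falls and a median log2 change of 1.90, and 13 of the 15 track Hbb-bs. Actc1, cardiac alpha-actin, was at 171, 343 and 320 scaled RPKM in null day 6 replicates 1, 2 and 3, against 25.7, 19.5 and 50.5 in null day 5 replicates 1, 2 and 3. The log2 change was 3.15 (SE 0.54, limma adjusted p = 0.00065). Tnnt2, cardiac troponin T, was at 17.2, 35.3 and 34.6 scaled RPKM on day 6, against 1.76, 2.63 and 5.39 on day 5. Both were above their other day 5 libraries in replicate 3, as Hbb-bs was.

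Myl7, the atrial and early embryonic regulatory light chain, had another order. It was at 237, 366 and 497 scaled RPKM on day 6, against 41.2, 69.3 and 16.8 on day 5, so the day 5 library with adult globin was the lowest, although its r with Hbb-bs over the 6 libraries was 0.921. The log2 change was 3.25 (SE 0.73, limma adjusted p = 0.010). That call was lost without null day 5 replicate 3 (2.70), without null day 6 replicate 2 (3.22) or 3 (3.00), and with only the 6 libraries in the fit (limma adjusted p = 0.054). Myl4, the atrial essential light chain, was at 15, 24.3 and 31.7 scaled RPKM on day 6, against 5.62, 7.13 and 4.83 on day 5, again lowest in replicate 3. Myl7, Myl4 and Tnnt2 were named after their values were seen.

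Myh7, the slow myosin heavy chain, rose without tracking Hbb-bs. It was at 4.71, 4.17 and 3.28 scaled RPKM on day 6, against 0.272, 0.405 and 0.708 on day 5 (log2 change 2.26, SE 0.17, limma adjusted p = 3.8e-09). Smyd1, a methyltransferase gene of developing muscle, was at 13, 13.1 and 12.5 scaled RPKM on day 6, against 2.84, 3.53 and 3.03 on day 5 (log2 change 1.89, SE 0.12). The 3 libraries of each day lay close together for Smyd1. Unc45b, a chaperone gene for myosin, rose by 1.61 and Ldb3, a Z-disc gene, by 1.71 on the log2 scale. After the subtraction 14 of the 24 embryonic sarcomere genes still rose, among them Actc1 (3.02), Tnnt2 (2.32) and Myh6 (2.57). Actc1, Tnnt2 and Myh6 also held their ratio to Hbb-bs within 1.5-fold over the day 6 libraries and null day 5 replicate 3. Their remaining rises are thus not shown to exceed what follows Hbb-bs. From Myl7, Myh7 and Smyd1 it took nothing. With only the 6 libraries in the fit 8 rose, and with a filter of 5 scaled RPKM 9 did.

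Calcium handling, channel and junction genes rose in 9 of 13 cases tested, with 0 falls and a median log2 change of 1.31. These figures depend on the filter on low levels. Without it 10 of 29 rose, with a median of 0.51. With a filter of 5 scaled RPKM 3 of 7 rose, with a median of 0.67. Casq2, which buffers calcium in the sarcoplasmic reticulum, was at 2.55, 6.68 and 6 scaled RPKM on day 6, against 0.0583, 0.0577 and 1.21 on day 5. Pln, the inhibitor of the calcium pump, was at 1.42, 4.14 and 3.78 scaled RPKM on day 6, against 0, 0 and 0.71 on day 5. Slc8a1, the sodium-calcium exchanger, was at 1.05, 1.31 and 1.18 scaled RPKM on day 6, against 0.0362, 0.0299 and 0.2 on day 5, and still rose after the subtraction (1.12).

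Hcn4, the pacemaker channel, was at 5.43, 3.04 and 3.12 scaled RPKM on day 6, against 1.31, 1.9 and 1.38 on day 5, with r = 0.42 to Hbb-bs, and was chosen with its values in view. Its rise of 1.07 lost its call without null day 5 replicate 1 (0.99) or null day 6 replicate 1 (0.83). The count of 9 in this list was 4, 6 and 8 without null day 5 replicates 1, 2 and 3, 7, 5 and 6 without null day 6 replicates 1, 2 and 3. It was 3 when the fit held the 6 libraries alone.

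Of the cardiac transcription factors 3 of 23 tested rose and 0 fell, with a median log2 change of 0.67. The list had 2 rises without null day 5 replicate 1 or 2 or null day 6 replicate 2. Nkx2-5, a homeobox factor of heart progenitors, was at 31.3, 25.7 and 33.4 scaled RPKM on day 6, against 6.74, 11.3 and 2.02 on day 5. It was lowest in null day 5 replicate 3 and rose by 2.34 on the log2 scale (SE 0.47, limma adjusted p = 0.0033), and by 1.72 without that library (adjusted p = 0.026). With only the 6 libraries in the fit Nkx2-5 lost its call (limma adjusted p = 0.11). Gata5, a zinc finger factor of endocardium and heart muscle, was at 11.2, 10.7 and 12.4 scaled RPKM on day 6, against 2.68, 3.23 and 3.05 on day 5 (log2 change 1.78, SE 0.19). The levels of Gata5 within each day differed little, whether or not the library held adult globin.

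Hopx, a homeodomain factor without DNA binding, was the third and tracks Hbb-bs. It was at 3.57, 5.32 and 5.53 scaled RPKM on day 6, against 1.81, 1.65 and 2 on day 5. Its log2 change was 1.17 (limma adjusted p = 0.028). In null day 4 replicate 3 Hopx stood at 7.7, above its day 6 levels. Hand2 stood at 66.3, 91 and 77.5 scaled RPKM on day 6, against 24.1, 34.2 and 35.1 on day 5. Its groups do not overlap, and its log2 change of 1.33 did not pass (SE 0.58, limma adjusted p = 0.29), while with only the 6 libraries in the fit the adjusted p was 0.039. Hand2os1, the transcript divergent to Hand2 and below the filter, had 450, 908 and 722 reads on day 6, against 209, 252 and 320 on day 5. Its exact two-sided permutation p was 0.1, the lowest possible. Whether reads of Hand2 and Hand2os1 can be told apart by strand is not given in the sources used here.

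**Figure D3:**
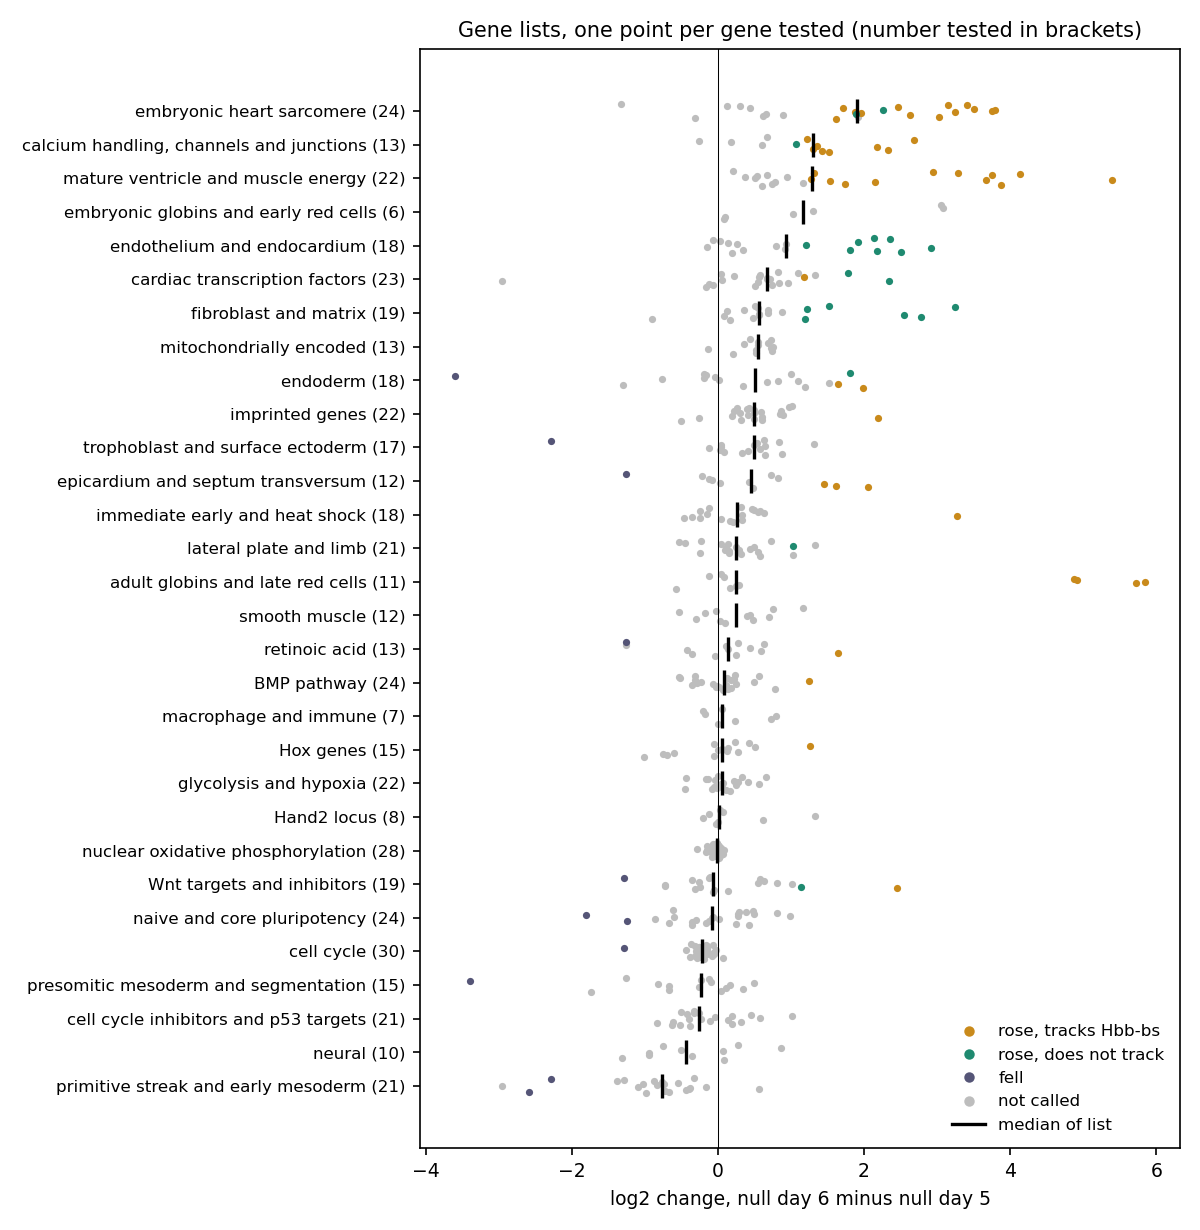
Log2 changes from null day 5 to null day 6 for the genes tested in each of 30 lists, sorted by median (black bar). Embryonic sarcomere genes have the highest median, 1.90, and primitive streak genes the lowest, -0.76; all rises in the endothelial and matrix lists are of genes that do not track Hbb-bs (green).

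Genes of vessel lining and endocardium rose without tracking Hbb-bs. Of 18 tested 8 rose and 0 fell, with a median log2 change of 0.93, and none of the 18 tracks Hbb-bs. The subtraction took nothing from 7 of the 8. Plvap, a protein of endothelial diaphragms, was at 22.7, 33.7 and 7.75 scaled RPKM in null day 6 replicates 1, 2 and 3, against 2.15, 3.43 and 0.978 in null day 5 replicates 1, 2 and 3. The log2 change was 2.91 (SE 0.45, limma adjusted p = 0.00024). Tie1, an endothelial receptor kinase, was at 6.47, 7.9 and 1.44 scaled RPKM on day 6, against 0.342, 0.56 and 0.191 on day 5 (log2 change 2.51). In both genes replicate 3 was the lowest library of each day.

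Tek, the receptor of angiopoietins, was at 3.34, 5.52 and 2.74 scaled RPKM on day 6, against 0.271, 0.454 and 0.594 on day 5, with a log2 change of 2.18. Cdh5, the vascular cadherin, was at 5.45, 6.05 and 1.3 scaled RPKM on day 6, against 0.354, 0.722 and 0.283 on day 5. The adhesion gene Esam rose by 1.92, the tight junction gene Cldn5 by 2.36 and the transcription factor Sox18 by 1.81 on the log2 scale. Cldn5 lost its call without null day 5 replicate 1 (2.29) or null day 6 replicate 2 (1.71), and Sox18, named after its values were seen, without null day 5 replicate 3 (1.24) or null day 6 replicate 1 (1.70) or 2 (1.53). Without null day 6 replicate 2 the list had 5 rises, and with only the 6 libraries in the fit 1. With a filter of 5 scaled RPKM 3 of 10 tested rose, with a median of 0.3.

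Embryonic globins, the products of primitive red cells, were lowest on day 6 in replicate 3, unlike adult globin, which was lowest in replicate 1. Hbb-bh1 was at 18.6, 36 and 7.35 scaled RPKM on day 6, against 1.18, 2.4 and 1.34 on day 5, and Hba-x was at 10.3, 18.3 and 3.38 on day 6, against 0.396, 0.898 and 0.607 on day 5. Neither passed, with log2 changes of 3.08 (SE 1.04, limma adjusted p = 0.12) and 3.05 (SE 0.86, adjusted p = 0.051). Hbb-y was at 1.32, 1.93 and 0.225 scaled RPKM on day 6, against 0.056, 0.194 and 0.0529 on day 5 (log2 change 1.30, adjusted p = 0.096). Hba-x (3.68) and Hbb-y (1.81) passed without null day 6 replicate 3. Their list had 0 of 6 genes that passed, with a median of 1.16.

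Matrix genes rose in 6 of 19 cases tested, with 0 falls and a median log2 change of 0.57. With only the 6 libraries in the fit 2 rose, and with the filter of 5 scaled RPKM 1 of 11 tested did. Col3a1, type III collagen, was at 5.91, 20.7 and 4.96 scaled RPKM on day 6, against 0.48, 0.356 and 0.536 on day 5 (log2 change 3.24, SE 0.59, limma adjusted p = 0.0012). Postn, the matrix protein periostin, was at 3.09, 12.1 and 4.3 scaled RPKM on day 6, against 0.374, 0.298 and 0.472 on day 5. The proteoglycan gene Lum was at 2.89, 13 and 4.42 scaled RPKM on day 6, against 0.485, 0.423 and 0.725 on day 5. Null day 6 replicate 2 was the highest library for all 3 genes.

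Igfbp5, a binding protein of insulin-like growth factors, was at 49.7, 29.5 and 19 scaled RPKM on day 6, against 8.1, 9.2 and 4.51 on day 5, a log2 change of 2.04. Nkx2-3, a homeobox factor of pharyngeal and gut development, was at 8.12, 3.37 and 5.25 scaled RPKM on day 6, against 1.01, 1.74 and 0.341 on day 5. Igfbp5 (limma adjusted p = 0.075) and Nkx2-3 (0.089) lost their calls with only the 6 libraries in the fit. In the epicardial list 3 of 12 genes rose and track Hbb-bs: the mesothelial Upk3b (2.06) and Upk1b (1.61) and the transcription factor Tcf21 (1.45). Its Aldh1a2, which makes retinoic acid, fell by 1.26 on the log2 scale, with 0.913, 0.693 and 0.606 scaled RPKM on day 6, against 3.6, 3.22 and 1.19 on day 5. Upk3b and Upk1b lost their calls without null day 5 replicate 1 (1.92 and 1.63) or 2 (1.95 and 1.54) and without null day 6 replicate 2 (1.64 and 1.19) or 3 (2.02 and 1.65), which leaves 1 rise in the list each time, and with only the 6 libraries in the fit none of the list rose or fell. Aldh1a2 lost its call without null day 5 replicate 1 (-1.03) or 2 (-1.10) and without any 1 of the day 6 libraries (-1.36, -1.24 and -1.19).

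In the endoderm list 3 of 18 genes tested rose and 1, Cer1, fell. The 3 were the carrier protein genes Ttr (1.98), Rbp4 (1.64) and Apoa1 (1.80). Rbp4 lost its call without null day 5 replicate 1 (1.62) or 3 (1.48) and without null day 6 replicate 2 (1.37) or 3 (1.66). The Wnt ligands Wnt2, made by the cardiac inflow region, and Wnt11 rose by 2.46 and 1.14. Wnt2 lost its call without null day 5 replicate 1 (2.26) or null day 6 replicate 2 (2.23), and Wnt11 without any 1 of the 6 libraries (1.05 to 1.20). Further single members that rose were the imprinted zinc finger gene Plagl1 (2.20), Meis1 (1.03) and Hoxb4 (1.26). Hoxb4 lost its call without null day 5 replicate 1 (1.16) or 2 (1.28) or null day 6 replicate 2 (1.11), and Meis1 without null day 5 replicate 3 (0.93) or null day 6 replicate 1 (0.95) or 2 (0.97). Rbp4 (limma adjusted p = 0.068) and Meis1 (0.055) also lost their calls with only the 6 libraries in the fit.

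**Figure D4:**
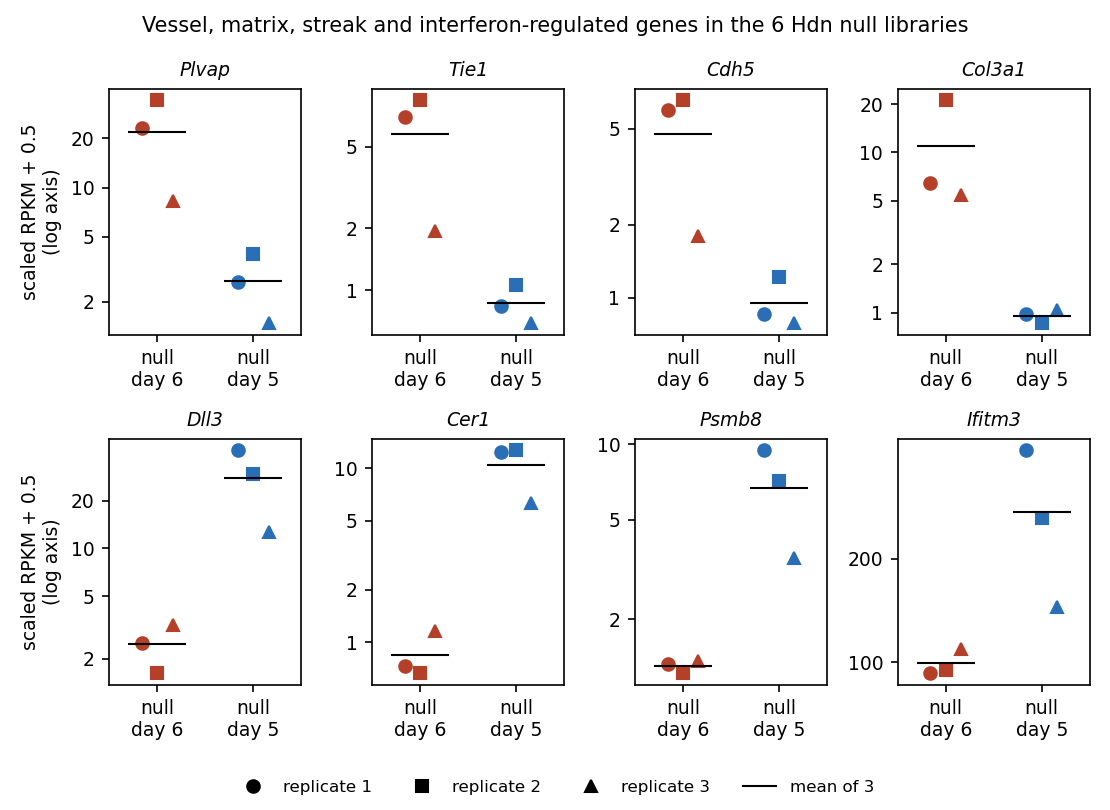
Scaled RPKM plus 0.5 on a log axis in each null library, day 6 left and day 5 right, with replicates by symbol and the mean of 3 as a line. Plvap, Tie1 and Cdh5 are lowest in replicate 3 on both days, and Dll3, Cer1, Psmb8 and Ifitm3 are lowest in replicate 3 among the day 5 libraries.

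Streak and early patterning genes were among the falls. Of 21 streak and early mesoderm genes tested 2 fell and 0 rose, with a median log2 change of -0.76. Cer1, which encodes a secreted antagonist of Nodal and BMP, was at 0.23, 0.161 and 0.655 scaled RPKM in null day 6 replicates 1, 2 and 3, against 11.9, 12.2 and 5.83 in null day 5 replicates 1, 2 and 3. The log2 change was -3.60 (SE 0.43, limma adjusted p = 7.8e-06). Dll3, a Notch ligand of presomitic mesoderm, was at 2.02, 1.12 and 2.79 scaled RPKM on day 6, against 41.4, 29 and 12.2 on day 5 (log2 change -3.40, SE 0.60). Both were lower in the day 5 library with adult globin than in the other day 5 libraries.

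The T-box gene T, which encodes Brachyury, was at 4.19, 1.83 and 1.62 scaled RPKM on day 6, against 20.8, 28.6 and 7.59 on day 5. Its log2 change was -2.59 (SE 0.71, limma adjusted p = 0.046), and the call was lost without null day 5 replicate 1 (-2.43) or 2 (-2.20) and without null day 6 replicate 2 (-2.44) or 3 (-2.37). T also lost its call with only the 6 libraries in the fit (adjusted p = 0.083). Cdx2, a caudal-type homeobox factor, was at 4, 7.56 and 3.69 scaled RPKM on day 6, against 22, 30.5 and 24.6 on day 5 (log2 change -2.28, SE 0.37). Mesp1, a factor of the earliest cardiac mesoderm, was at 0.465, 0.414 and 1.2 scaled RPKM on day 6, against 14.7, 9.93 and 3.93 on day 5. It did not pass (log2 change -2.96, adjusted p = 0.069) and passed without null day 5 replicate 3 (-3.46, adjusted p = 0.041). Without that library 5 of the 21 streak genes fell, and 1 fell without null day 5 replicate 1 or 2 or null day 6 replicate 2 or 3.

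The pluripotency factor gene Pou5f1 was at 7.2, 8.89 and 8.74 scaled RPKM on day 6, against 20.3, 22.2 and 18 on day 5, a log2 change of -1.24 (SE 0.20). Fgf5, a growth factor of primed epiblast, fell by 1.80, the forkhead gene Foxd4 by 2.12 and the kinase gene Pim2 by 1.91 on the log2 scale. Fgf5 lost its call without null day 5 replicate 1 (-1.73) or 2 (-1.66) or null day 6 replicate 2 (-1.55), Foxd4 without null day 5 replicate 2 (-1.61), and Pim2 without null day 5 replicate 1 (-1.71) or 2 (-1.69) or null day 6 replicate 2 (-1.73) or 3 (-1.89). Foxd4 (limma adjusted p = 0.14) and Pim2 (0.083) also lost their calls with only the 6 libraries in the fit. Ccnd1, cyclin D1, was the 1 of 30 cell cycle genes that fell, at 4.3, 3.07 and 3.32 scaled RPKM on day 6, against 8.85, 9.81 and 9.5 on day 5. The day 5 libraries lay within a narrow range for both Ccnd1 and Pou5f1.

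Several interferon-regulated genes fell. Psmb8, a subunit of the immunoproteasome, the form of the proteasome that interferon induces, was at 0.826, 0.718 and 0.866 scaled RPKM on day 6, against 8.98, 6.66 and 3.03 on day 5. The log2 change was -2.25 (SE 0.36, limma adjusted p = 0.00034). Psmb10, the second such subunit, was at 8.08, 9.03 and 9.83 scaled RPKM on day 6, against 42.8, 32.8 and 15.9 on day 5, and the third, Psmb9, fell by 1.35 on the log2 scale. Ifitm3, a membrane protein that blocks virus entry, was at 92.2, 94.6 and 109 scaled RPKM on day 6, against 414, 262 and 144 on day 5 (log2 change -1.34, SE 0.27). The interferon-induced GTPase genes Gbp2 and Irgm1 fell by 1.34 and 1.31.

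Psmb9, Ifitm3, Gbp2 and Irgm1 were named after their values were seen, and no list of interferon-regulated genes was tested. On day 4 Psmb8 stood at 24.9, 27.7 and 10.9 scaled RPKM and Ifitm3 at 496, 507 and 319, above the day 6 libraries in each case. Psmb10 lost its call without null day 5 replicate 1 (-1.30), Psmb9 without null day 5 replicate 1 (-1.10) or 2 (-1.23), and Ifitm3 without null day 5 replicate 1 (-0.98). Ifitm3 (limma adjusted p = 0.15), Psmb9 (0.12), Psmb10 (0.094) and Gbp2 (0.064) also lost their calls with only the 6 libraries in the fit. Psmb8 and Irgm1 kept theirs.

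The null step was set beside the same step of wild-type cells. In wild-type cells 24 genes rose from day 5 to day 6, 0.169% of those tested, and 7 fell, 0.0493%. Wild-type day 6 replicate 3 stood apart in embryonic blood, matrix and some vessel genes: its embryonic globins and early red cell genes summed to 156 scaled RPKM, against 2.19 and 3.88 in the other wild-type day 6 libraries, and its Plvap stood at 8.94, against 2.31 and 1.88. Its Col3a1 was at 6.95 scaled RPKM, against 0.545 and 0.352, while its Cdh5, at 6.96, lay between theirs of 6.73 and 10.1. The median log2 change in wild type was 0.25 for the embryonic sarcomere list, 0.09 for the mature ventricle list, 0.09 for calcium handling and 0.27 for endothelium. All 92 null rises that do not track Hbb-bs had a wild-type change above 0, as did 70 of the 82 that track it and 54.4% of all genes. Of the 33 that fell in null cells 31 were below 0 in wild type, against 45.4% of all genes. Rises in both steps numbered 9, among them Smyd1, Gata5, Esam and Igfbp5, and falls in both 6, among them Cer1, Dll3, Psmb8, Pim2 and Vrtn.

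A test of the difference between both steps called 26 genes higher in the null step, 0.183% of those tested, and 1 lower, 0.00704%. Of the 26, 25 track Hbb-bs, and Myh7 is the other. For Myh7 the difference was 2.05 (SE 0.24, limma adjusted p = 3.5e-05), with a wild-type level of 0.0463, 0.218 and 0.191 scaled RPKM on day 6, against 0.0695, 0.0279 and 0.0848 on day 5. Asb2, an adaptor of muscle protein turnover, differed by 2.56 (SE 0.28, adjusted p = 1.7e-05), and Slc8a1 by 1.43 (SE 0.14, adjusted p = 3.3e-06). Myh7, Asb2 and Slc8a1 reached 1 scaled RPKM, the filter level, in all null day 6 libraries and in no null day 5 library. The filter may thus favour differences in this direction, and its part in the 26 calls was not counted. The 1 gene on the lower side was Ctsr, a cathepsin gene of placenta, which changed by 0.05 in null cells and 1.36 in wild type.

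The 26 higher calls became 3 with a pseudocount of 0.1, 1 with a filter of 5 scaled RPKM, 2 with only the 12 libraries of both steps in the fit, and 51 without wild-type day 6 replicate 3. The 1 lower call was at 0 in 8 of the 12 fits that left out 1 library, and reached 9 without wild-type day 5 replicate 2. The differences for Hbb-bs (5.08, adjusted p = 0.63) and Myl2 (5.37, adjusted p = 0.20) did not pass. Endothelial and matrix genes did not pass either: the difference was 1.70 for Plvap (SE 0.64) and 1.63 for Col3a1 (SE 0.83). A missed threshold does not show that both steps are alike.

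**Figure D5:**
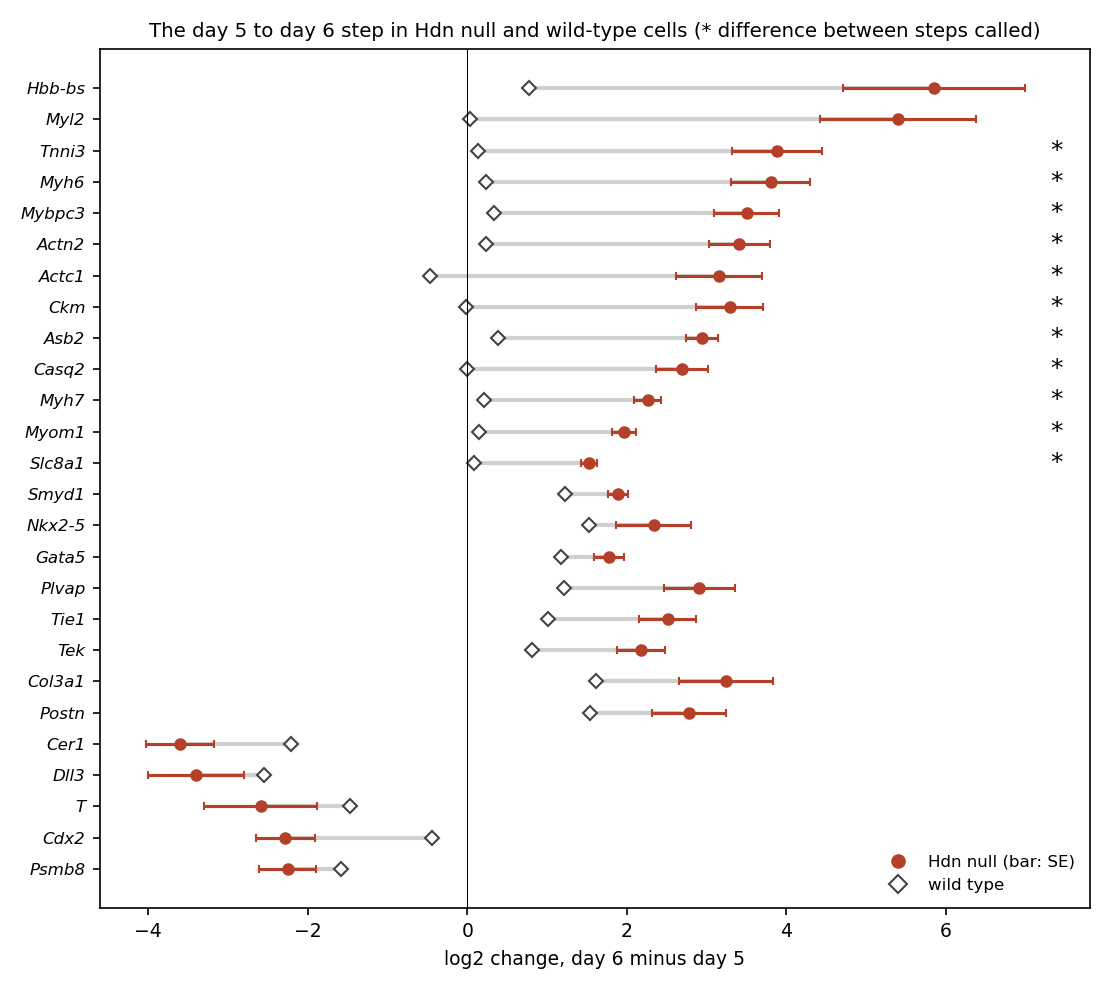
Log2 changes from day 5 to day 6 in Hdn null cells (filled circles, bar: SE) and wild-type cells (open diamonds) for selected genes; a star marks a called difference between both steps. Myl2 and Hbb-bs have the widest gaps, 5.37 and 5.08, and no star; their SEs in null cells, 0.98 and 1.14, are the widest bars.

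Genes of other cell types the dishes could hold were counted beside these results. Of 7 macrophage and immune genes tested, 10 neural genes and 12 smooth muscle genes none rose or fell, at median log2 changes of 0.06, -0.43 and 0.25. As 1.46% of all genes rose or fell, lists this short cannot show that these cell types were unchanged. Changes were above 0 for 5, 4 and 8 genes of these lists. The macrophage receptor gene Csf1r changed by 0.79 (limma adjusted p = 0.00068), short of the log2 threshold. The smooth muscle list summed to 750 to 1070 scaled RPKM on day 6, against 576 to 691 on day 5. The summed level of the macrophage list ran between 24.2 and 33.4 scaled RPKM on day 6, against 21.5 to 23.3 on day 5. Mitochondrially encoded genes, which are abundant in heart muscle, had 0 of 13 past the test and a median log2 change of 0.54. Their summed level ran between 11800 and 13000 scaled RPKM on null day 6, against 7660 to 10400 on null day 5, highest there in replicate 3. In wild-type cells that sum ran between 8940 and 14000 scaled RPKM on day 6, against 10200 to 12400 on day 5. High sums were thus not particular to null cells. Beyond the subtraction, the part of adult heart and blood transcripts in the rises of tracking genes was not tested.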

How the data were processed

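RNA was sequenced from 30 libraries of 10 groups of ESCs (wild-type or Hdn null, undifferentiated or on days 3 to 6), with 3 per group; 4 further samples of the series were not analysed here. The authors deposited RPKM per gene and library for 52636 genes. STAR, DESeq2 and mm10 are named in the submitters' processing notes, while tool versions, annotation, the counting method and its use of strand are unstated in these sources. Header names stand 1 cell left of their values in the deposited table, so columns were read by position. Read totals were inferred from the smallest steps of RPKM in short RNA genes; the whole-read steps held for 82.5% to 94.2% of such values (within 2% of a whole number), so no count test was run.

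RPKM were scaled by median-ratio size factors over 11618 genes (0.965 to 1.043 in the 6 null libraries). The filter kept the 14196 genes that reached 1 scaled RPKM in 3 or more libraries. Limma 3.58.1 in R 4.3.3 fitted log2(scaled RPKM + 0.5) with 1 mean per group over all 30 libraries, a mean-variance trend and Benjamini-Hochberg adjustment, and was tested on simulated data. The difference between the null and the wild-type step was a contrast of that fit. Python 3.11.15 with pandas 2.3.3, numpy 2.4.6 and scipy 1.17.1 did the rest.

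The members and the 30 gene lists were chosen with earlier results of these data known. Named genes were the 12 largest rises and 12 largest falls that do not track Hbb-bs, the 12 largest rises that track it, up to 5 genes per list by smallest adjusted p, the 6 largest called differences in each direction, and Hbb-bs, Myl2, Hand2, Hdn and Hand2os1; others are said to be named after their values were seen. Alternatives were other pseudocounts, filters, scalings, thresholds of r, a fit of the compared libraries only, a replicate block, the subtraction, and leaving out each library. Leaving out null day 4 replicate 3 with null day 5 replicate 3 was added after seeing the data. A gene that the rule names is not reported here.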

Additional observations from a re-analysis of the deposited data

Results flagged for a closer look

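For 27 genes, 19 of which are named here, the change from day 5 to day 6 differed between null and wild-type cells by the limma test of the difference itself (adjusted p under 0.05, difference of at least 1), given here as the null change minus the wild-type change on the log2 scale. Among sarcomere genes it was 3.63 for Actc1, 3.17 for Actn2, 1.33 for Ldb3, 3.16 for Mybpc3, 3.55 for Myh6, 2.05 for Myh7, 1.82 for Myom1 and 1.35 for the myosin chaperone gene Unc45b. In genes of the mature ventricle it was 2.56 for Asb2, 3.3 for Ckm, 2.16 for Myoz2, 1.68 for Pygm and 3.75 for Tnni3. For calcium handling and natriuretic peptide genes it was 2.69 for Casq2, 2.16 for Nppa, 2.31 for Pln and 1.43 for Slc8a1. It was 2.78 for the small heat shock gene Hspb7 and -1.31 for the cathepsin gene Ctsr. Of the 19, all but Myh7 and Ctsr track Hbb-bs. The calls lost without 1 library were those of Tnni3 (without any wild-type library, null day 5 replicate 1 or 2, or null day 6 replicate 2 or 3), Actc1 (without wild-type day 5 replicate 2 or 3, wild-type day 6 replicate 1, or the same 4 null libraries), Hspb7 (without wild-type day 6 replicate 1 or 2, or those 4), Myh6 (without wild-type day 6 replicate 1, or those 4), Pln (without any of those 4) and Ctsr (without any null library, wild-type day 5 replicate 1 or 3, or wild-type day 6 replicate 2). With only the 12 libraries of both steps in the fit Myh7 and Slc8a1 kept their calls. Both reached the filter level in all null day 6 libraries and in no null day 5 library, so the filter may favour them.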

How the results depend on the processing

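The 174 rises became 77 with a filter of 5 scaled RPKM, 79 with only the 6 libraries in the fit, 348 by adjusted p alone, and 117 to 178 when 1 library was left out. The 33 falls became 4672 after the subtraction (lower by its construction), 89 without both null libraries with adult globin on days 4 and 5, 16 with only the 6 libraries, 53 with a pseudocount of 0.1, 102 by adjusted p alone, and 18 to 76 without 1 library. The 488 genes that track Hbb-bs became 280 (filter of 5), 856 (without both globin libraries), 998 (no filter), 1214 (r of at least 0.8), 208 (0.95), and 487 to 1074 without 1 library. The 82 tracking rises became 38 (filter of 5), 38 (only the 6 libraries), 132 (adjusted p alone), 50 (r of at least 0.95), and 46 to 132 without 1 library. The 92 other rises became 39, 41 and 216 in the first 3 of these settings, 55 with a pseudocount of 1, 53 with r of at least 0.8, and 28 to 97 without 1 library. The 26 higher differences became 1 (filter of 5), 44 (subtraction), 42 (without both globin libraries), 48 (no filter), 2 (only the 12 libraries), 3 (pseudocount 0.1), and 19 to 51 without 1 library. The 1 lower difference became 0 with the filter of 5, only the 12 libraries, a pseudocount of 0.1 or quantile normalization, 4601 after the subtraction, 7 without both globin libraries, 3 with no filter, 2 with no scaling, equal sums or adjusted p alone, and 0 to 9 without 1 library. Of the single-gene results, 63 lost their call with only the compared libraries in the fit, 36 did not change and 1 gained a call. Beyond the subtraction and the smaller fits the cause was not tested.

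After the subtraction, which can only lower these values, the null change was at or below 0 for Casq2 (-0.02), Cox8b (0.00), Ctsr (-0.01), Hoxb4 (-0.58), Mb (-1.74), Myl2 (-0.15), Pln (0.00) and Tnni3 (-0.20). The difference between steps was below 0 for Casq2 (-0.02), Pln (-0.02) and Tnni3 (-0.33). Hbb-bs itself became 0 in every null library by construction, so its change of 0.00 is no result. Same-numbered null libraries of both days correlated at -0.13, 0.17 and -0.03, so the numbers were not taken to pair them, and not every library correlated best with its own number; a replicate block gave 199 rises, 37 falls, 38 higher differences and 4 lower, and 4 of the 6 embryonic globin and early red cell genes rose under it, among them Hba-x (limma adjusted p = 0.0097), Hbb-bh1 (0.043) and Hbb-y (0.018), while T lost its call (0.05). With depths near 60 M reads, levels of a few reads, as for Hdn, limit what can be told apart.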
